A study of Mus musculus with 2 samples.

Results

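Ccl3/Ccl4-high neutrophils were 358 of the 9007 cells kept from the NaOH-injured library, and of 16163 cells kept in the series. They were chosen by measured values. From barcodes with at least 500 unique molecular identifiers (UMIs, each counting 1 captured transcript) and at most 20% mitochondrial UMIs, cells were taken that met 3 conditions on levels in CPM, the UMIs of a gene scaled to a cell total of 1000000. Krt5+Krt14 stood below 3000 CPM, S100a8+S100a9 reached 5000 CPM and 5 UMIs, and Ccl3+Ccl4 reached 10000 CPM. The 471 cells of the same library that met every condition but the last are called low neutrophils, and the members high neutrophils. The injured library came from cornea and limbus of wild-type (wt) mouse tissue given an NaOH injury, which is an alkali burn, and the other library from the same wt tissue as an uninjured control. Both were dissociated and run as single cells on the 10x Genomics platform. No strain, age, sex, number of animals or time after injury is given in the sources used here. With 1 library in each group and all members in 1 library, no difference below has a replicate check and no test is given. The 95% intervals (exact Poisson for levels, exact binomial for shares and for ratios of summed counts) cover counting error only.

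Neutrophils are among the first leukocytes to enter a burned cornea. They carry S100a8 and S100a9, which together form calprotectin, and answer danger signals with secreted cytokines. Ccl3 and Ccl4 are neighbouring genes for CC chemokines, the macrophage inflammatory proteins, which act through receptors such as Ccr1 and draw monocytes and lymphocytes. Cxcl2 and Cxcl3 are CXC chemokines whose receptor on neutrophils is Cxcr2, and Il1b is a cytokine that is cut to its active form downstream of the inflammasome.

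The label was checked against neutrophil markers that the rule did not use, Csf3r, Cxcr2, Retnlg, Hdc, G0s2, Il1r2, Mmp9, Trem1 and Clec4d. At least 3 UMIs over these 9 genes were found in 347 of 358 high neutrophils (96.9%) and in 450 of 471 low neutrophils (95.5%). The same held for 5.78% of 6487 keratin cells, those with Krt5+Krt14 at or above 3000 CPM, for 96 of 196 C1q cells (49.0%), those with at least 1000 CPM and 3 UMIs of C1qa, C1qb and C1qc, and for 15.5% of the 1495 other cells. Ly6g, a surface marker of mouse neutrophils, was not among the 9 genes and was near absent in members under 2000 UMIs. It had 1 UMI in the 25 such members with a Retnlg UMI and 3 UMIs in the 328 without. A UMI of C1qa, C1qb or C1qc, which mark macrophages, was present in 4 high neutrophils (1.12%) and 8 low neutrophils (1.70%). Of 7 genes of the primary granules, which are made in the bone marrow, 5 had no UMI in each gate. Mpo, Elane, Ctsg and Ms4a3 had 0 UMIs in both gates. The 7 genes summed to 198 CPM in high neutrophils and 184 CPM in low neutrophils, and 1 of them had at least 50 CPM over both gates. Of 14 lymphocyte markers, 13 had no UMI in high neutrophils and 11 had none in low neutrophils. Of 13 markers of mast cells, basophils and eosinophils, 11 had no UMI in high neutrophils and 10 had none in low neutrophils. The 13 markers summed to 65.0 CPM in high neutrophils and 54.5 CPM in low neutrophils, and 1 had at least 50 CPM over both gates. The gate thus held cells with neutrophil transcripts on both sides of the Ccl3+Ccl4 threshold. High neutrophils were 3.97% (interval 3.58 to 4.40) of kept cells of the injured library. In the uninjured library 0 of 7156 kept cells were high, and 4 (0.0559%) met the gate below the threshold. A count of 3 cells, the floor used for low counts, would be a share of 0.0419%, which is not an interval limit. The libraries shared 15 barcode sequences, 2 of them among high neutrophils and 1 among low neutrophils.

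Of the 829 gated neutrophils of the injured library, 43.2% (interval 39.8 to 46.6) were high. The rule cuts through a continuous value, and cells on either side of it were close in counts. Between 10000 and 12500 CPM lay 59 members, with a median of 10 Ccl3+Ccl4 UMIs, and between 8000 and 10000 CPM lay 39 low neutrophils, with a median of 7. Ccl3+Ccl4 ran between 10014 and 165345 CPM in high neutrophils, with a median of 23488 CPM, and between 0 and 9926 CPM in low neutrophils, with a median of 2567 CPM. S100a8+S100a9 had medians of 57067 CPM in high neutrophils and 55323 CPM in low neutrophils, and their ranges overlapped almost entirely. Both chemokines were usually held together, since 337 members (94.1%) had UMIs of Ccl3 and of Ccl4, 13 of Ccl3 alone and 8 of Ccl4 alone. Ccl4 (ENSMUSG00000018930, chromosome 11, 83662584 to 83664683, plus strand) outnumbered Ccl3 (ENSMUSG00000000982, chromosome 11, 83647844 to 83649355, minus strand, both in GRCm38 by GENCODE M21) in 239 members, and Ccl3 outnumbered Ccl4 in 104. The median member had 13687 CPM of Ccl4 and 8668 CPM of Ccl3. These values describe the rule and support nothing further. High neutrophils held 0.327% of the UMIs of the injured library, but 51.7% of its Ccl3 UMIs, 62.0% of its Ccl4 UMIs, 33.3% of its Nlrp3 UMIs, 30.3% of its Il1b UMIs and 19.3% of its Cxcl2 UMIs. Low neutrophils held 0.491% of the UMIs, 9.36% of the Ccl3 UMIs, 6.28% of the Ccl4 UMIs, 22.1% of the Nlrp3 UMIs, 30.3% of the Il1b UMIs and 9.36% of the Cxcl2 UMIs.

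**Figure D1:**
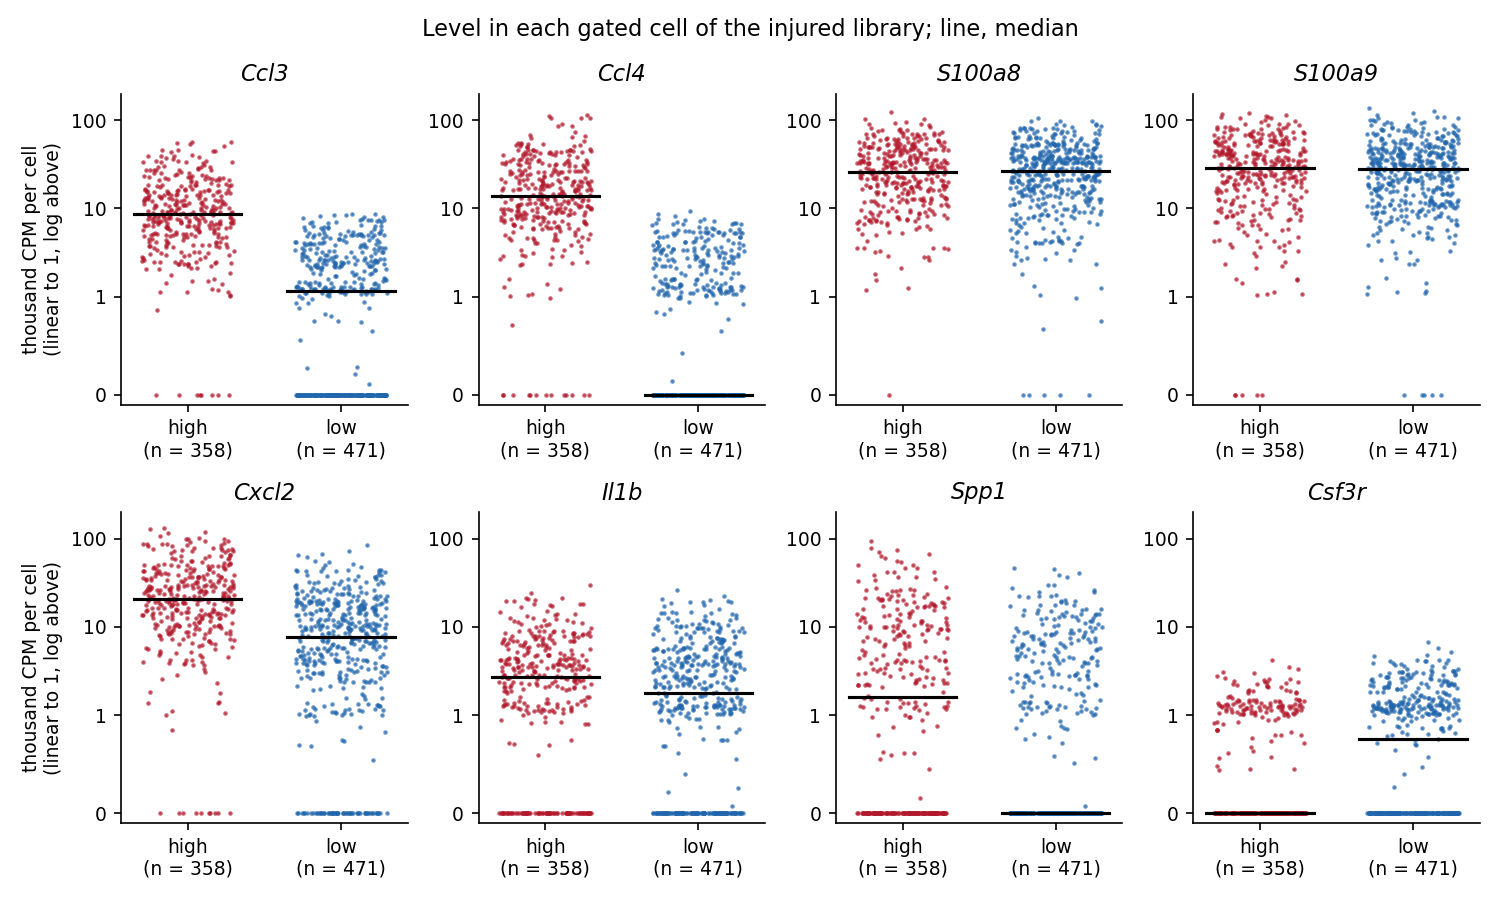
Level of 8 genes in each gated cell of the injured library, in CPM divided by 1000 on an axis that is linear to 1 and logarithmic above, with the median as a line; 358 high neutrophils stand left of 471 low neutrophils. Ccl3, Ccl4, S100a8 and S100a9 were used by the rule; of the others, Cxcl2 had medians of 20771 CPM in high neutrophils and 7767 CPM in low neutrophils, with broad overlap of the cells.

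Median depth was close between the gates. The median was 892 UMIs and 493 genes in high neutrophils and 846 UMIs and 505 genes in low neutrophils, far below the 11828 UMIs of keratin cells. The mitochondrial share had medians of 0.544% in high neutrophils and 0.644% in low neutrophils. A few deep cells set the gates apart: 5 high neutrophils with at least 2000 UMIs held 4.23% of that gate's UMIs, whereas 17 such low neutrophils, with a median of 7259 UMIs, held 24.4% of theirs. These 17 cells held 98.1% of the Ltf UMIs of low neutrophils, 90.8% of their Mmp3 and 89.1% of their Gsto1, but 3.31% of their Csf3r and 6.42% of their Cxcl2. The 17 cells had 100 CPM of Csf3r and 4902 CPM of S100a8. Low neutrophils under 2000 UMIs had 945 and 31857 CPM of these genes. The 17 are called low neutrophils by the rule alone. Scoring for doublets marked 2 of them. Ratios and list medians are therefore given for all gated cells and, for most, again for the 353 high and 454 low neutrophils under 2000 UMIs, an alternative chosen after the data had been seen. Krt5+Krt14, which the rule caps in both gates, had medians of 1097 CPM in high neutrophils and 1096 CPM in low neutrophils. The limit on Krt5+Krt14 set aside another 147 cells that met the S100a8+S100a9 condition, and of the 105 among them with under 2000 UMIs, 43 (41.0%) reached the Ccl3+Ccl4 threshold.

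UMIs were summed over the cells of each gate, and 2656 genes of at least 50 CPM over both gates were compared. High neutrophils were at least 2-fold above low neutrophils in 39 genes (1.47%) and at least 2-fold below them in 170 (6.4%), or 7.87% either way. The median log2 ratio of all genes was -0.08, and 43.4% of genes were above 0. Among cells under 2000 UMIs, 23 of 2569 genes (0.895%) were at least 2-fold higher and 56 (2.18%) at least 2-fold lower, or 3.08% either way, the median log2 ratio was -0.14 and 34.6% of genes were above 0. Few genes were thus far apart. The 15 genes of highest ratio were chosen for it on these cells, so their values are a description, and 9 of them were still at least 2-fold higher among cells under 2000 UMIs. As the same UMIs place a cell in a gate and give its levels, cells were also gated on a random part of their UMIs and the levels were read from the rest. Ccl3 was then 6.87 times and Ccl4 10.6 times higher in high neutrophils, and Cxcl2 3.06 times (2.91 to 3.22). Spp1 stood at 2.13 times (1.95 to 2.34), Retnlg at 3.78 (2.23 to 6.61) and Il1a at 2.89 (1.66 to 5.17). With all UMIs these were 2.57, 5.48 and 2.47. Cells of all depths were used in this split.

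**Figure D2:**
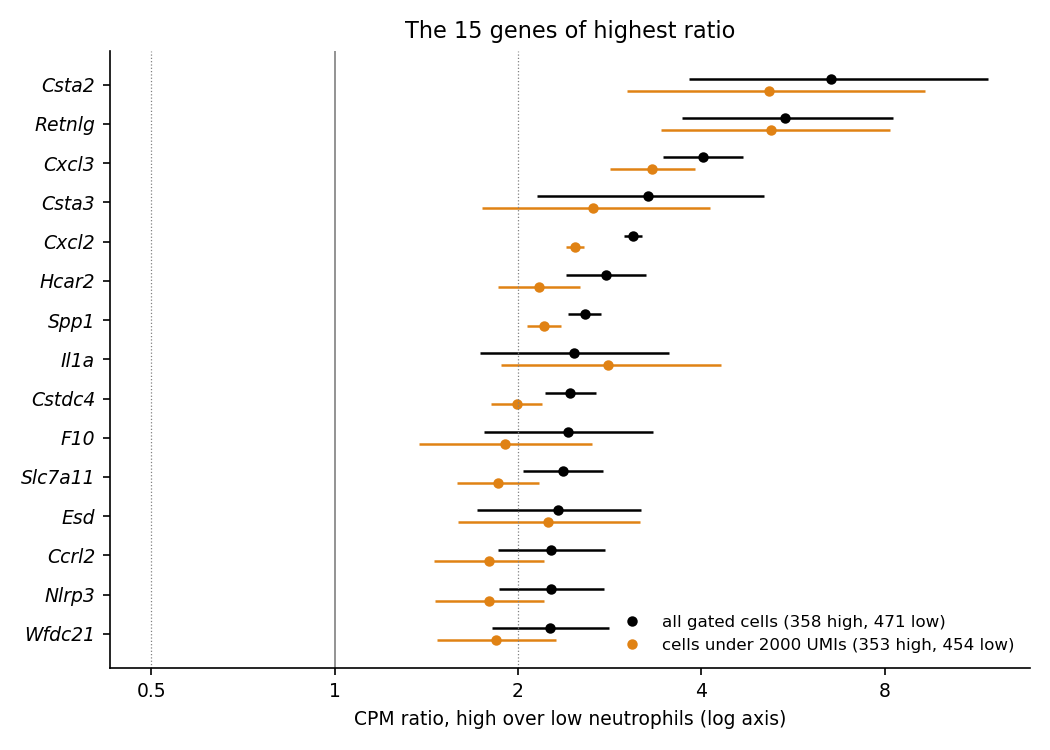
Ratio of summed CPM, high over low neutrophils, for the 15 genes of highest ratio (log axis; bars, 95% counting interval), over all gated cells in black and over cells under 2000 UMIs in orange. All lie right of 1 in both sets of cells, with Cxcl2 at 3.09 over all cells and 2.48 under 2000 UMIs.

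The upstream sequences of Cxcl2, Cxcl3 and Cxcl1 are shown first, with that of Ccl3 beside them. These CXC genes lie close together on chromosome 5 and were all higher in high neutrophils among cells under 2000 UMIs. No RefSeq promoter was available for Ccl4, and Ccl2, which also differed under 2000 UMIs, is not shown. Each run is 220 bases, 5′ to 3′ on the gene's strand, from 250 to 31 bases before the start site (RefSeq, GRCm38.p6). They lie at chr5:90903649-90903868 on the plus strand for Cxcl2, chr5:90785851-90786070 on the plus strand for Cxcl3, chr5:90890995-90891214 on the plus strand for Cxcl1 and chr11:83649409-83649628 on the minus strand for Ccl3. Capitals mark the NF-kappaB consensus motif, searched on both strands; in each of these CXC genes it matches on both strands, 1 base apart, and the capitals join the matches.
Cxcl2: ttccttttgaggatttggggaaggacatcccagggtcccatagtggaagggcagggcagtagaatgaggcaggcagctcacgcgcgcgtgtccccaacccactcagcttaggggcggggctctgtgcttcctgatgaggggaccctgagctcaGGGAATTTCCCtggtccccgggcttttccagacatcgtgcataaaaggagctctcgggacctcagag
Cxcl3: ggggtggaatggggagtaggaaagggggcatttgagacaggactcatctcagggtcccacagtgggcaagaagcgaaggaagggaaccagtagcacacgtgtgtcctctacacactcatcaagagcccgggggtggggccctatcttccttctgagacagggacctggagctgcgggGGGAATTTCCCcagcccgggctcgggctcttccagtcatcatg
Cxcl1: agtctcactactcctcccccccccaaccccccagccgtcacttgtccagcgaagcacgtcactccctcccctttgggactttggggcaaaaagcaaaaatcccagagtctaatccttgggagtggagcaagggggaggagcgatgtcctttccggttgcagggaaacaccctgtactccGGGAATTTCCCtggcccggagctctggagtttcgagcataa
Ccl3: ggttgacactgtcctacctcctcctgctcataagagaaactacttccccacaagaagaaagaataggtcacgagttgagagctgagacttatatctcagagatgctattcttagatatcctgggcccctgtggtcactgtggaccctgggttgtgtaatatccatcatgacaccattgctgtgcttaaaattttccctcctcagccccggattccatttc
The first match begins 97 bases before the start site in Cxcl2, 73 in Cxcl3 and 71 in Cxcl1, and the matched letters are the same in all of them. The letters of the motif were not found in the Ccl3 window, which covers 250 bases before to 50 after the start. Of the 15 genes of highest ratio, 13 have a promoter in the RefSeq table. Of those, 4 (30.8%) hold the motif in at least 1 promoter, namely Cxcl2, Cxcl3, Nlrp3 and Ccrl2. Nlrp3 and Ccrl2 also have promoters without it. The share was 9.55% of all 27025 genes and 8.46% of all 32851 promoters of that length. Il1a, Il1b, Spp1 and Tnf had no match in the same window. Of the 15 genes of lowest ratio under 2000 UMIs, 3 of 12 with a promoter held the motif too. Both sets were chosen for their ratios on these cells, so the shares are a description. A link between motif and level was not tested. A match describes the letters and is not a measured binding site.

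Among the CXC chemokines, Cxcl2 was the most abundant. It had 29346 CPM in high neutrophils and 9485 CPM in low neutrophils, a ratio of 3.09 (2.99 to 3.20), and of 2.48 (2.40 to 2.57) among cells under 2000 UMIs. Its lowest, median and highest values by cell were 0, 20771 and 132829 CPM in high neutrophils and 0, 7767 and 84821 CPM in low neutrophils. Nearly all members carried it, and the ranges overlapped. With each cell thinned to 500 UMIs, a Cxcl2 UMI was found in 95.8% of high neutrophils, 79.8% of low neutrophils and 8.70% of keratin cells (97.2% of high neutrophils and 87.5% of low neutrophils unthinned). Cxcl3 had 1783 CPM in high neutrophils and 444 CPM in low neutrophils, a ratio of 4.02 (3.45 to 4.69), and of 3.32 (2.83 to 3.90) under 2000 UMIs. Fewer cells carried it, with a UMI in 29.1% of thinned high neutrophils, 13.2% of thinned low neutrophils and 1.80% of thinned keratin cells (38.3% of high neutrophils and 17.0% of low neutrophils unthinned). Cxcl1, a ligand of the same receptor, had 223 CPM in high neutrophils and 349.7 CPM in low neutrophils over all cells. Under 2000 UMIs it had 212 CPM in high neutrophils and 84.6 CPM in low neutrophils, a ratio of 2.51 (1.65 to 3.90), so its direction turned with the deep cells. Of 5 CXC chemokines compared, 2 were at least 2-fold higher over all cells and 2 at least 2-fold lower, Cxcl5 at 0.190 times and Ppbp at 0.151 times, both of them neutrophil attractants (1.47% of all genes were 2-fold higher and 6.4% lower). Under 2000 UMIs 3 were at least 2-fold higher and 0 lower (0.895% and 2.18% of all genes), with Cxcl5 at 1.40 (0.579 to 3.46) and Ppbp at 0.943 (0.587 to 1.5).

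Other CC chemokines were scarce beside Ccl3 and Ccl4. Ccl2, which draws monocytes, had 622 CPM in high neutrophils and 711 CPM in low neutrophils over all cells, but 649 CPM in high neutrophils and 256 CPM in low neutrophils under 2000 UMIs, a ratio of 2.53 (2.0 to 3.23). Ccl9, a ligand of Ccr1, stood at 1.93 times (1.44 to 2.60) over all cells and 1.69 times (1.24 to 2.31) under 2000 UMIs. Ccl6, of the same kind, stood at 1.59 times (1.18 to 2.14) over all cells and 1.40 times (1.02 to 1.93) under 2000 UMIs. Ccl5, Ccl8, Ccl17 and Ccl22 had no UMI in either gate. Of 4 compared, 0 were at least 2-fold higher over all cells (1.47% of all genes) and 1 under 2000 UMIs (0.895%).

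Chemokine receptors showed no common direction, with a median log2 ratio over 4 genes of 0.12 over all cells and -0.17 under 2000 UMIs. Ccr1, which binds Ccl3, had 2402 CPM in high neutrophils and 1850 CPM in low neutrophils, a ratio of 1.30 (1.18 to 1.42), but of 1.06 (0.965 to 1.17) under 2000 UMIs. Ccrl2, an atypical receptor that holds chemerin at the cell surface, stood at 2.27 times (1.85 to 2.78) over all cells and 1.79 times (1.46 to 2.20) under 2000 UMIs. A Ccrl2 UMI was found in 22.3% of thinned high neutrophils, 12.5% of thinned low neutrophils and 0.700% of thinned keratin cells (31.6% of high neutrophils and 20.4% of low neutrophils unthinned). Cxcr2, the receptor for Cxcl2, stood at 0.866 times (0.689 to 1.08) over all cells and 0.687 times (0.544 to 0.865) under 2000 UMIs, with 354 CPM in high neutrophils and 515 CPM in low neutrophils under 2000 UMIs. Cxcr4, which holds neutrophils in the bone marrow, stood at 0.908 times (0.688 to 1.19) over all cells and 0.744 times (0.562 to 0.982) under 2000 UMIs.

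Within the interleukin-1 family, Il1b itself was close between the gates under 2000 UMIs. It had 4077 CPM in high neutrophils and 2709 CPM in low neutrophils, a ratio of 1.5 (1.40 to 1.62), and of 1.2 (1.11 to 1.29) under 2000 UMIs. Its lowest, median and highest values by cell were 0, 2676 and 29601 CPM in high neutrophils and 0, 1786 and 25992 CPM in low neutrophils, which overlapped broadly. Il1a, a cytokine released by damaged cells, had lower levels further apart, 246 CPM in high neutrophils and 99.6 CPM in low neutrophils, a ratio of 2.47 (1.73 to 3.54) and of 2.81 (1.87 to 4.30) under 2000 UMIs. A UMI of Il1a was found in 9.22% of thinned high neutrophils, 3.82% of thinned low neutrophils and 1.5% of thinned keratin cells, and keratin cells held 86.2% of the library's Il1a UMIs. Nlrp3, the sensor of the inflammasome, had 721 CPM in high neutrophils and 318 CPM in low neutrophils and stood at 2.27 times (1.86 to 2.77) over all cells and 1.79 times (1.46 to 2.21) under 2000 UMIs. Its UMIs were found in 22.3% of thinned high neutrophils, 16.6% of thinned low neutrophils and 0.100% of thinned keratin cells. Il1rn, the secreted receptor antagonist, stood at 1.89 times (1.65 to 2.16) over all cells and 1.51 times (1.31 to 1.74) under 2000 UMIs. Il1r2, the decoy receptor, went the other way at 0.883 times (0.804 to 0.968) over all cells and 0.744 times (0.677 to 0.818) under 2000 UMIs. The 8 compared genes of the family had a median log2 ratio of 0.51 over all cells, with 2 at least 2-fold higher (1.47% of all genes), and of 0.29 under 2000 UMIs, with 1 (0.895% of all genes). Casp1, which cuts pro-Il1b, had only 7 UMIs in high neutrophils and 4 in low neutrophils.

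Among other secreted products, Spp1 (osteopontin, an adhesive cytokine) had 7592 CPM in high neutrophils and 2949.9 CPM in low neutrophils, a ratio of 2.57 (2.42 to 2.74), and of 2.20 (2.07 to 2.35) under 2000 UMIs. Its lowest, median and highest values by cell were 0, 1609 and 93252 CPM in high neutrophils and 0, 0 and 46961 CPM in low neutrophils. A Spp1 UMI was found in 54.7% of thinned high neutrophils, 37.6% of thinned low neutrophils and 1.30% of thinned keratin cells (60.3% of high neutrophils and 45.0% of low neutrophils unthinned), so many cells of either gate had none. High neutrophils held 19.2% of the library's Spp1 UMIs, low neutrophils 11.2%, C1q cells 17.5%, keratin cells 19.5% and other cells 32.5%. Thbs1 (thrombospondin 1, a matrix glycoprotein) had 1339 CPM in high neutrophils and 617 CPM in low neutrophils and stood at 2.17 times (1.88 to 2.51) over all cells and 1.88 times (1.62 to 2.19) under 2000 UMIs. Tnf, the tumour necrosis factor, had 418 CPM in high neutrophils and 212 CPM in low neutrophils and stood at 1.97 times (1.53 to 2.54) over all cells and 1.5 times (1.16 to 1.94) under 2000 UMIs. Osm (oncostatin M, a cytokine of the interleukin-6 family) stood at 1.60 times (1.16 to 2.20) over all cells and 1.30 times (0.936 to 1.80) under 2000 UMIs. Csf1, the macrophage growth factor, stood at 1.15 times (1.01 to 1.29) over all cells and 0.918 times (0.811 to 1.04) under 2000 UMIs. Hbegf, a growth factor for epithelium, stood at 0.668 times (0.395 to 1.10) over all cells but 2.37 times (1.14 to 5.20) under 2000 UMIs. Of 9 such cytokines and growth factors compared, 7 were above 0 over all cells (43.4% of all genes) and 7 under 2000 UMIs (34.6% of all genes), with median log2 ratios of 0.55 and 0.48 in those sets. Il10, an anti-inflammatory cytokine, had 8 UMIs in high neutrophils and 0 in low neutrophils, too few to compare.

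Hcar2, a receptor for niacin and the ketone body beta-hydroxybutyrate, had 1409.9 CPM in high neutrophils and 506 CPM in low neutrophils, a ratio of 2.79 (2.40 to 3.25), and of 2.16 (1.86 to 2.53) under 2000 UMIs. A Hcar2 UMI was found in 41.1% of thinned high neutrophils, 22.5% of thinned low neutrophils and 4.20% of thinned keratin cells (54.5% of high neutrophils and 31.4% of low neutrophils unthinned). Slc7a11, which imports cystine for glutathione synthesis, had 1269 CPM in high neutrophils and 536 CPM in low neutrophils and stood at 2.37 times (2.04 to 2.76) over all cells and 1.85 times (1.59 to 2.17) under 2000 UMIs. F10 (coagulation factor X) stood at 2.41 times (1.76 to 3.33) over all cells and 1.90 times (1.37 to 2.65) under 2000 UMIs, and Wfdc21, a small secreted protein with a WAP domain, at 2.26 times (1.81 to 2.82) over all cells and 1.84 times (1.47 to 2.31) under 2000 UMIs. Esd (esterase D) stood at 2.33 times (1.71 to 3.18) over all cells and 2.24 times (1.60 to 3.18) under 2000 UMIs, and its UMIs were found in 10.3% of thinned high neutrophils, 5.73% of thinned low neutrophils and 12.2% of thinned keratin cells, which had 256 CPM of it. The 15 compared receptors of pattern recognition and their adaptors had a median log2 ratio of 0.49 over all cells and 0.15 under 2000 UMIs. Fpr1, which senses bacterial formyl peptides, was the one gene of them at least 2-fold higher over all cells, at 2.09 (1.49 to 2.96). Of all genes 1.47% were so. Under 2000 UMIs Fpr1 stood at 1.71 (1.2 to 2.44), and 0 of the list were at least 2-fold higher (0.895% of all genes). Clec4e, a lectin receptor that senses fungal and mycobacterial glycolipids, stood at 1.64 times (1.5 to 1.80) over all cells and 1.27 times (1.16 to 1.40) under 2000 UMIs. Cd14, the co-receptor for bacterial lipopolysaccharide, had 4089 CPM in high neutrophils and 2916 CPM in low neutrophils and stood at 1.40 times (1.30 to 1.51) over all cells and 1.13 times (1.05 to 1.22) under 2000 UMIs.

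Some of the highest ratios rested on few cells, those of Retnlg, Csta2 and Csta3. Retnlg, a secreted resistin-like protein of myeloid cells, had 350.4 CPM in high neutrophils and 63.9 CPM in low neutrophils, a ratio of 5.48 (3.72 to 8.26), and of 5.21 (3.43 to 8.16) under 2000 UMIs. In that set it came from 25 of 353 high neutrophils (7.08%) and 16 of 454 low neutrophils (3.52%), and 10 cells held 82.9% of the UMIs of the high neutrophils. Csta2 and Csta3, stefin A type inhibitors of cysteine proteases, stood at 6.54 (3.82 to 11.8) and 3.27 (2.15 to 5.06) over all cells and at 5.16 (3.02 to 9.33) and 2.66 (1.74 to 4.14) under 2000 UMIs, with 19 and 27 high neutrophils and 9 and 17 low neutrophils under 2000 UMIs holding a UMI. Cstdc4, of the same family, had 3209.8 CPM in high neutrophils and 1316 CPM in low neutrophils and stood at 2.44 times (2.22 to 2.68) over all cells and 1.99 times (1.81 to 2.19) under 2000 UMIs. It was present in 129 of 353 high neutrophils (36.5%) and 109 of 454 low neutrophils (24.0%). The stefin genes lie together on chromosome 16 as near-identical copies, so the division of reads among Csta1, Csta2, Csta3, Cstdc4 and Stfa2l1 is uncertain. Csta2 and Csta3 shared 10 members, 52.6% of those with Csta2 and 37.0% of those with Csta3; Retnlg shared 0 with either, counts too small to read a separation from.

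Genes that mark neutrophils were mostly higher in high neutrophils over all cells, and split about evenly under 2000 UMIs. Of 17 genes compared, 13 were above 0 over all cells, with a median log2 ratio of 0.31. Under 2000 UMIs 9 were above 0, with a median of 0.03. Of all genes 43.4% were above 0 over all cells and 34.6% under 2000 UMIs. The values over all cells include the deep low neutrophils, which had 100 CPM of Csf3r and 4902 CPM of S100a8. Their part in the 13 genes was not tested. Csf3r, the receptor for the growth factor that makes and sustains neutrophils, was lower in high neutrophils, with 531 CPM in high neutrophils and 739 CPM in low neutrophils, a ratio of 0.719 (0.601 to 0.858), and of 0.562 (0.468 to 0.672) under 2000 UMIs. With levels read from UMIs that the gate did not use, over cells of all depths, Csf3r stood at 0.816 times (0.631 to 1.05). Its UMIs were found in 23.5% of thinned high neutrophils, 34.6% of thinned low neutrophils and 0.8% of thinned keratin cells (38.3% of high neutrophils and 52.0% of low neutrophils unthinned). Hdc, which makes histamine, stood at 1.23 times (1.07 to 1.42) over all cells and 0.990 times (0.857 to 1.14) under 2000 UMIs. G0s2, an inhibitor of fat breakdown, stood at 1.93 times (1.48 to 2.51) over all cells and 1.60 times (1.22 to 2.11) under 2000 UMIs. Of the 14 compared genes of freshly recruited neutrophils, 9 were above 0 over all cells (43.4% of all genes) and 6 under 2000 UMIs (34.6% of all genes), with median log2 ratios of 0.19 and -0.03 in those sets.

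Granule genes were few and uneven. In the secondary granules, Lcn2, which binds bacterial iron carriers, stood at 2.25 times (1.83 to 2.78) over all cells and 2.28 times (1.82 to 2.87) under 2000 UMIs, and Mmp8, a collagenase, at 1.52 times (1.12 to 2.06) over all cells and 1.37 times (0.999 to 1.88) under 2000 UMIs. Ltf (lactoferrin) of the same granules was far lower over all cells, as given with the genes of lowest ratio. The 4 compared genes had median log2 ratios of 0.72 over all cells and 0.51 under 2000 UMIs. In the tertiary granules and cytosol, Mmp9, a gelatinase, stood at 1.46 times (1.28 to 1.66) over all cells and 1.18 times (1.03 to 1.34) under 2000 UMIs, and Pglyrp1, which binds bacterial peptidoglycan, at 0.176 times (0.142 to 0.216) over all cells and 0.674 times (0.522 to 0.866) under 2000 UMIs. The 9 compared genes of that list had median log2 ratios of 0.54 over all cells and 0.23 under 2000 UMIs.

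Genes of the NF-kappaB pathway and its feedback, which induces many chemokine genes, had a median above that of all genes. Of 21 compared, 16 were above 0 with a median log2 ratio of 0.32, and 13 were above 0 under 2000 UMIs with a median of 0.13 (43.4% and 34.6% of all genes were above 0 in these sets). Traf1, an adaptor of receptors for tumour necrosis factor, was the one at least 2-fold higher, at 2.0 (1.30 to 3.12), where 1.47% of all genes were. Under 2000 UMIs 0 were so (0.895% of all genes). Nfkbia, the inhibitor that the pathway itself induces, had 2085 CPM in high neutrophils and 1401 CPM in low neutrophils and stood at 1.49 times (1.34 to 1.65) over all cells and 1.28 times (1.15 to 1.43) under 2000 UMIs. Rela, a subunit of the factor, stood at 0.567 times (0.321 to 0.965) over all cells and 0.527 times (0.295 to 0.911) under 2000 UMIs, on 20 UMIs in high neutrophils and 53 in low neutrophils. Immediate early genes had a median log2 ratio of 0.17 over 16 genes, and of 0.23 under 2000 UMIs, where 14 were above 0 (34.6% of all genes). Egr1, a transcription factor of that list, stood at 1.49 times (1.28 to 1.75) over all cells and 1.78 times (1.49 to 2.14) under 2000 UMIs. Of 4 compared interferon-induced genes, 0 were at least 2-fold apart either way over all cells (7.87% of all genes), too few genes to read from. Their median log2 ratio was -0.06 over all cells and 0.09 under 2000 UMIs. In the list of survival and death, 10 of 11 genes were above 0 over all cells (43.4% of all genes) and 6 under 2000 UMIs (34.6% of all genes). Bcl2a1b, an inhibitor of apoptosis with near-identical copies that may share its reads, stood at 1.64 times (1.40 to 1.91) over all cells and 1.30 times (1.12 to 1.52) under 2000 UMIs.

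The lists of glycolysis, oxidative phosphorylation, redox defence, lysosome and cytoskeleton had medians between -0.19 and 0.19 over all cells, where the median of all genes was -0.08, and between -0.21 and 0.12 under 2000 UMIs, where it was -0.14. Genes of glycolysis and hypoxia had a median log2 ratio of 0.19 over 17 genes, and of -0.02 under 2000 UMIs. Hilpda, a hypoxia-induced protein of lipid droplets in that list, stood at 1.58 times (1.09 to 2.28) over all cells and 1.75 times (1.16 to 2.66) under 2000 UMIs. Nuclear genes of oxidative phosphorylation had medians of -0.19 over all cells and -0.13 under 2000 UMIs over 14 genes. Genes of the NADPH oxidase and of redox defence had medians of 0.18 and -0.04 over 19 genes in the same sets of cells. Lysosomal and phagocytic genes had medians of 0.17 and 0.12 over 17 genes, and Fth1, a subunit of the iron store ferritin, had 35853 CPM in high neutrophils and 27435 CPM in low neutrophils and stood at 1.31 times (1.28 to 1.34) over all cells and 1.2 times (1.17 to 1.23) under 2000 UMIs. Cytoskeletal genes had a median of -0.02 over all cells and of -0.21 under 2000 UMIs, where 3 of 16 were above 0 (34.6% of all genes). Actb, beta-actin, stood at 0.824 times (0.777 to 0.873) over all cells and 0.728 times (0.685 to 0.774) under 2000 UMIs, and Tmsb4x, which sequesters actin, at 0.746 times (0.714 to 0.779) over all cells and 0.768 times (0.733 to 0.804) under 2000 UMIs. In cells under 2000 UMIs the medians were -0.05 for 15 adhesion genes, -0.09 for 7 eicosanoid genes and -0.07 for 13 transcription factors of neutrophils. They were 0.10 for 14 genes linked to neutrophils of tumours, 0.05 for 9 genes of efferocytosis and 0.05 for 13 genes of mRNA decay and kinase feedback.

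**Figure D3:**
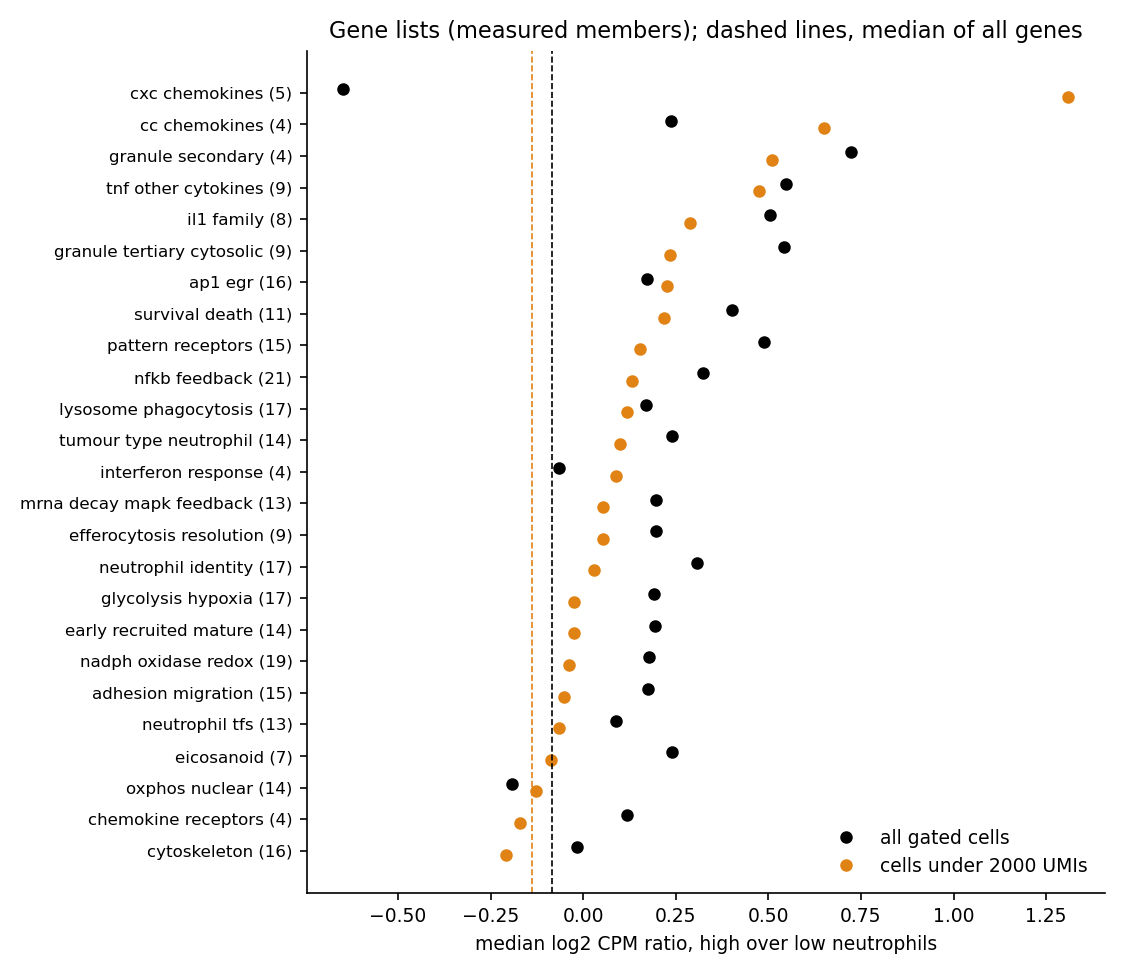
Median log2 ratio of summed CPM, high over low neutrophils, for gene lists with at least 4 compared genes (number in brackets), over all gated cells in black and under 2000 UMIs in orange; dashed lines give the median of all genes, -0.08 over all cells and -0.14 under 2000 UMIs. Lists of markers of other cells are not drawn. The CXC chemokines were at -0.65 over all cells and 1.31 under 2000 UMIs.

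Several genes followed Ccl3+Ccl4 in steps across both gates. In cells under 2000 UMIs, bands that began at 0, above 0, at 5000, at 10000, at 20000 and at 40000 CPM of Ccl3+Ccl4 held 126, 194, 134, 153, 112 and 88 cells. From the lowest band to the top one, Cxcl2 had 7477, 11682, 15525, 18304, 30400.2 and 45611 CPM, higher at each step. Cxcl3 had 132, 531, 872, 828, 1355 and 3806 CPM in these bands, and Spp1 had 2809.9, 3094, 4852, 6973, 7394 and 9808 CPM. Il1rn likewise had 594, 958, 1060, 1104, 1355 and 1759 CPM. Il1rn, Spp1, Cxcl2 and Cxcl3 were thus highest where Ccl3+Ccl4 was highest. Nlrp3 had 255 CPM (168 to 370.4) in the lowest band and 1161 CPM (946 to 1411) in the top one, and Il1a had 18.9 CPM (2.28 to 68.1) and 471 CPM (338 to 639.5). Lcn2 had 264 CPM (175 to 382) in the lowest band and 1046 CPM (842 to 1285) in the top one. Some receptors were lower toward the top band and others higher. Csf3r had 1065, 877, 938, 635, 505 and 391 CPM over the 6 bands, Cxcr2 613, 514, 432, 414, 365 and 241 CPM and Il1r2 2838, 2897, 2732, 2469, 2169 and 1426 CPM. By contrast Ccrl2 had 358, 381, 432, 669, 757 and 678 CPM, Cd14 3262, 3498, 4256, 4007, 3917 and 4657 CPM and Hcar2 613, 589, 742, 959, 1776 and 1633 CPM. Tmsb4x had 12258, 11209, 10617, 9656, 8956 and 6703 CPM and Actb 8062, 6718, 6116, 5469, 5048 and 4231 CPM, lower at each step. S100a8 had 28730.4, 33258, 32583, 34795, 30774 and 27537 CPM, with no order along the bands. The median depth was 832 UMIs in the lowest band and 922 UMIs in the top one, and a higher Ccl3+Ccl4 share itself leaves fewer of a cell's UMIs to its other genes.

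**Figure D4:**
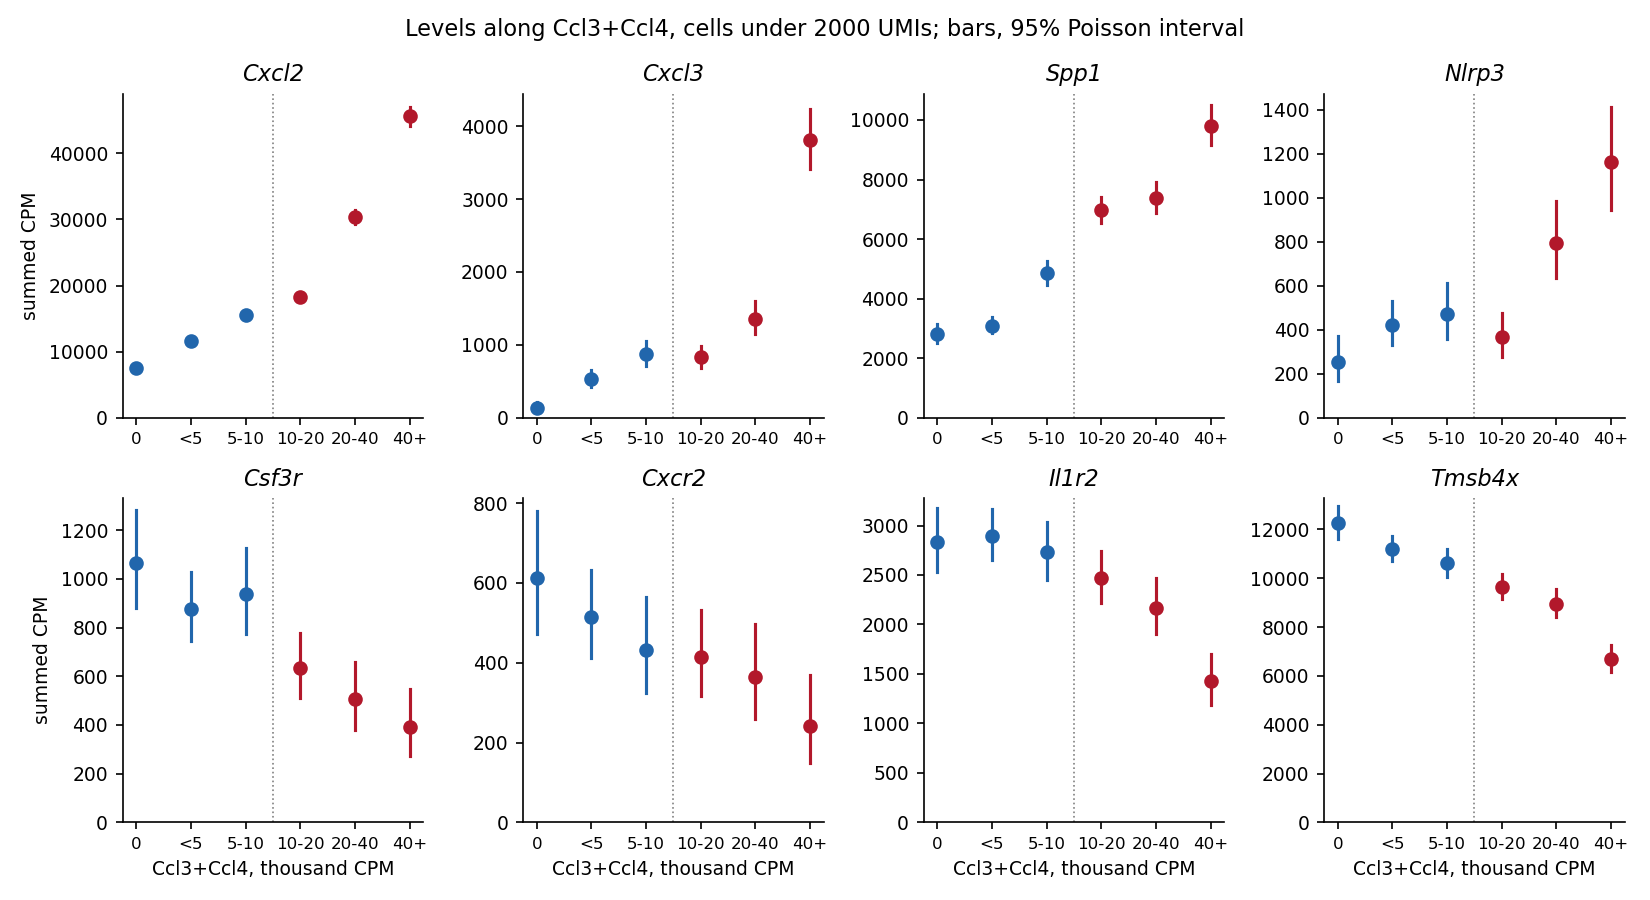
Summed CPM of 8 genes (bars, 95% Poisson interval) by band of Ccl3+Ccl4 in CPM divided by 1000, for cells under 2000 UMIs; cells with no Ccl3 or Ccl4 UMI form the first band, the dotted line marks the threshold at 10000 CPM, low neutrophils are blue and high neutrophils red. Cxcl2, Cxcl3, Spp1 and Nlrp3 are highest in the top band, and Csf3r, Cxcr2, Il1r2 and Tmsb4x lowest in it.

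Among the 358 members, thinned to 500 UMIs each, Ccl3+Ccl4 went with Cxcl2 (Spearman's rho 0.43) and less with Cxcl3 (0.24), Il1b (0.14) and Spp1 (0.07). Ccl3 and Ccl4 had a rho of 0.19, and S100a8 and S100a9 one of 0.76. These describe sparse counts of cells from 1 library and carry no test. Members were chosen on the sum of Ccl3 and Ccl4, which itself affects the rho of that pair. It therefore cannot be set against the rho of S100a8 and S100a9.

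Members differed in what they held beside the chemokines, as seen in subsets of those under 2000 UMIs chosen after their values were known. The 25 members with Retnlg had 49166 CPM (46309 to 52152) of S100a8, against 30421 CPM (29816 to 31034) in the 328 without. Their Mmp8 was 934 CPM (578 to 1428), against 215 CPM (167 to 272) in members without Retnlg, and their Spp1 3559.5 CPM (2822 to 4430.1), against 8137 CPM (7826 to 8457). The summed levels of Mmp8 and S100a8 were thus higher, and that of Spp1 lower, in these 25 cells. Mmp8 rested on 21 UMIs in them and 68 in the members without Retnlg, and spread between cells was not measured. The 103 members with more Ccl3 than Ccl4 had 37272 CPM (36092 to 38481) of Cxcl2 and 1088 CPM (894 to 1311) of Ccrl2, against 25835 CPM (25171 to 26513) and 514 CPM (424 to 617) in the 235 with more Ccl4. Cstdc4 was at 1918 CPM (1658 to 2208) in members with more Ccl3 and 3879 CPM (3624 to 4147) in members with more Ccl4, and Retnlg at 49.4 CPM (16.1 to 115) and 509 CPM (419.5 to 612). The Retnlg levels rest on 5 and 113 UMIs, and 10 cells held 82.9% of the Retnlg UMIs of high neutrophils under 2000 UMIs. They therefore describe a few cells rather than either group of members. Il1b was close in both, 4034 CPM (3652 to 4445) in members with more Ccl3 and 4208 CPM (3942 to 4486) in members with more Ccl4. In the 91 members with at least 10000 CPM of Spp1, Cstdc4 had 5276 CPM (4804 to 5781) and Lcn2 333 CPM (223 to 479), against 1792 CPM (1569.9 to 2036) and 808 CPM (662 to 977) in the 141 without a Spp1 UMI. Ccl3 was close in both, 11839 CPM (11127 to 12585) in members high in Spp1 and 11451 CPM (10879 to 12045) in members without it.

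The 15 genes of lowest ratio over all cells were all nearer to a ratio of 1 under 2000 UMIs. They were Ltf, Psca, Prss27, Plet1, Csta1, Plac8, Muc4, Ecm1, Mal, Ly6a, Ifit1bl1, Krt7, Serpina3n, Upk3bl and Pdzk1ip1, several of which are known from surface epithelia, such as the membrane mucin Muc4 and the keratin Krt7. Ltf had 33.9 CPM in high neutrophils and 2510 CPM in low neutrophils over all cells, but 29.5 CPM in high neutrophils and 64.7 CPM in low neutrophils under 2000 UMIs, a ratio of 0.456 (0.196 to 0.978). Ly6a, a surface antigen of many cell types, had 105 CPM in high neutrophils and 1092 CPM in low neutrophils over all cells, but a ratio of 1.22 (0.744 to 2.0) under 2000 UMIs. Without the deep cells 11 of the 15 stayed below 1, 5 of them at least 2-fold lower, and 0 were among the 15 lowest named genes of that set, which had to reach 200 CPM in a gate under 2000 UMIs. Markers of other cells differed with them. The 10 stromal markers, of which 0 were at 0 in high neutrophils and 0 in low neutrophils, summed to 1150 CPM in high neutrophils and 6499.6 CPM in low neutrophils, and under 2000 UMIs to 1174 CPM in high neutrophils and 1079.7 CPM in low neutrophils. The 12 epithelial markers summed to 2882 CPM in high neutrophils and 4668 CPM in low neutrophils, and under 2000 UMIs to 2936 CPM in high neutrophils and 2971 CPM in low neutrophils. The 14 macrophage markers summed to 698 CPM in high neutrophils and 1301 CPM in low neutrophils, against 38796 CPM in the 196 C1q cells; under 2000 UMIs they summed to 534 CPM in high neutrophils and 674 CPM in low neutrophils, and 0 of them were at 0 in high neutrophils and 1 in low neutrophils. The 9 monocyte markers summed to 458 CPM in high neutrophils and 963 CPM in low neutrophils, and under 2000 UMIs to 422 CPM in high neutrophils and 299 CPM in low neutrophils. The part of these cells in the lower genes was not tested. Among genes that reached 200 CPM under 2000 UMIs, others were lowest, chosen after their values were seen. They included Ythdc1, a reader of modified RNA, at 0.448 (0.298 to 0.660), Cytip, a regulator of leukocyte adhesion, at 0.450 (0.292 to 0.679), Stat3, a transcription factor downstream of cytokine receptors, at 0.551 (0.390 to 0.770), and Il17ra, the receptor for interleukin-17, at 0.583 (0.419 to 0.803).

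**Figure D5:**
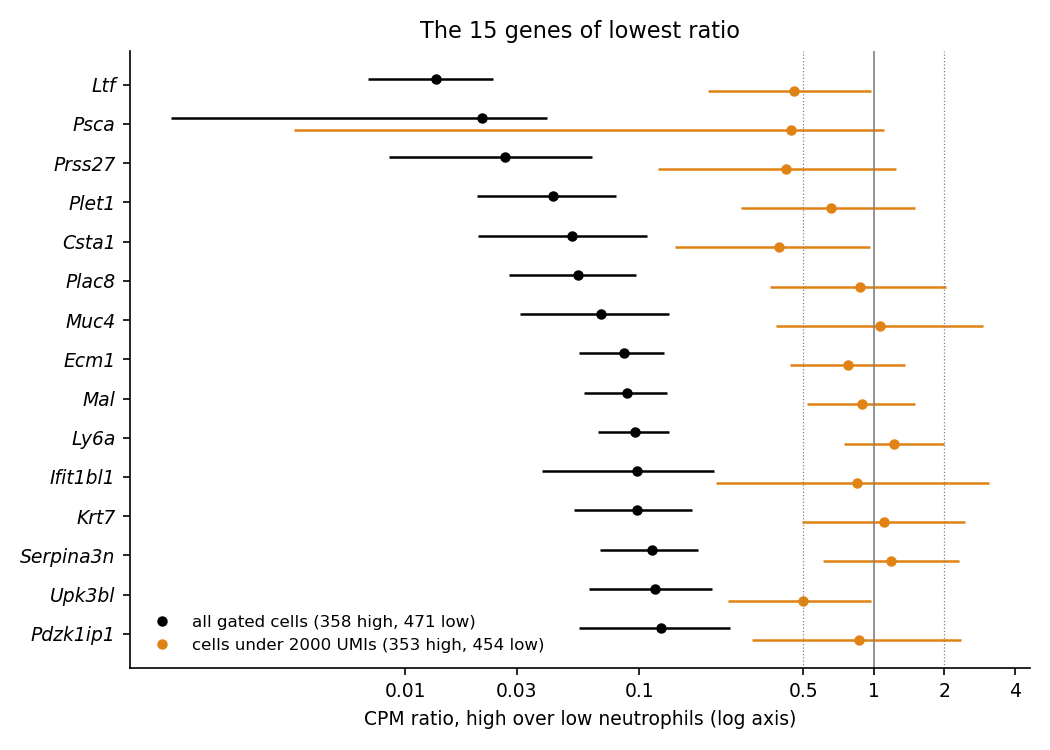
Ratio of summed CPM, high over low neutrophils, for the 15 genes of lowest ratio (log axis; bars, 95% counting interval), over all gated cells in black and over cells under 2000 UMIs in orange. Every gene lies below 0.5 over all cells, whereas under 2000 UMIs 11 of the 15 lie below 1 and 4 above it.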

How the data were processed

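The deposited matrices hold raw UMI counts per gene and barcode for 32285 genes, written by Cell Ranger 7.0.1, per the file headers. The submitters' processing notes name the build GRCm38; annotation release and 10x chemistry: not given in the sources used here. Anterior segments had most conjunctiva removed and were digested with liberase and then trypsin, per the labels' protocols. The injured library had 9399 barcodes and 108863350 UMIs, the uninjured one 7490 and 85457541. The members, the gene lists and the alternatives were chosen with earlier results of these data known.

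Counts were summed over the cells of each gate, scaled to CPM and compared as ratios, with an exact 95% interval; with 1 library per group no test was run. Genes of at least 50 CPM over both gates were compared. Named genes were the 15 of highest and the 15 of lowest ratio among 741 genes of at least 200 CPM in a gate whose level there was at least 25% of the highest in any compartment of the library, without the 6 genes of the rule and without predicted, mitochondrial, hemoglobin, ribosomal and sex-linked genes; list members are named with their list. Shares in thinned keratin cells rest on a random 1000 of them. Doublets were scored with Scrublet in scanpy 1.11.5; its automatic threshold marked 2 barcodes (0.0213%), taken as failed, so the highest 7.52% of scores (707 barcodes, an assumed 0.8% per 1000) were marked, 2 in each gate, and left in. The ratio and its interval were tested on simulated data. Python 3.11.15, numpy 2.4.6, pandas 2.3.3, scipy 1.17.1 and matplotlib 3.10.9 were used. Gene coordinates are from GENCODE M21 and promoter sequences from RefSeq.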

Additional observations from a re-analysis of the deposited data

How the results depend on the processing

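No paired analysis was possible because each group is 1 library and the gates come from the same one. Depth is a further limit: at a median under 1000 UMIs a gene near 50 CPM rests on few UMIs. The share of high neutrophils (43.2%) was 51.8% with at least 1000 UMIs per cell, 55.0% in cells of 1000 to under 2000 UMIs, 22.7% in cells of 2000 or more, 59.6% at a threshold of 5000 CPM and 24.5% at 20000 CPM. The genes at least 2-fold higher and lower (39 and 170) were 219 and 458 with at least 1000 UMIs, 114 and 309 with Krt5+Krt14 below 1000 CPM, 94 and 345 for at least 20000 against below 5000 CPM, 94 and 264 in the count split, 510 and 903 with no filter, 192 and 398 at 1.5-fold, and 23 and 56 without cells of 2000 or more UMIs, a setting added after seeing the data. The lower genes alone were 106 with S100a8+S100a9 at 20000 CPM, 66 by the mean of each cell's CPM and 72 for genes of at least 100 CPM; the higher genes alone were 121 in cells of 1000 to under 2000 UMIs and 1570 in the 5 and 17 cells of 2000 or more. Some of the 15 lowest genes changed direction (log2 ratio high over low): in cells of 500 to under 1000 UMIs Pdzk1ip1 0.15, Serpina3n 0.36, Ifit1bl1 0.56, Ly6a 0.68, Mal 0.32, Muc4 0.0769 and Plac8 0.27; in cells of 1000 to under 2000 UMIs Serpina3n 0.13, Krt7 0.82, Ecm1 0.23 and Muc4 0.0631; without cells of 2000 or more UMIs Serpina3n 0.25, Krt7 0.15, Ly6a 0.29 and Muc4 0.0940; Pdzk1ip1 0.62 when thinned and Serpina3n 0.10 with S100a8+S100a9 at 20000 CPM. The cause was not tested, beyond the share of UMIs in the deep cells. None of the 15 highest genes, which were chosen for their ratio on these cells, did so. Of 522 values of list medians under 18 alternatives, 62 moved. Requiring 3 neutrophil marker UMIs, also added, left the share and both counts within 1.5 times.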
